A study of Mus musculus with 8 samples.

Results

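The vascular endothelial growth factor (VEGF) and angiopoietin genes measured here were 4 VEGF ligands (Vegfa, Vegfb, Vegfc and Figf, now named Vegfd), 4 receptors (Kdr, Flt1, Flt4 and Tek) and 2 angiopoietins (Angpt1 and Angpt2). They were chosen by gene name, as every probe that the array files assign to one of these symbols. That gave 14 probes for 10 of the 23052 genes named on the array: 3 probes for Flt1, 2 each for Vegfa and Kdr, and 1 for each of the other genes. Their RNA levels were read on 8 Agilent arrays with a single dye, 2 per group. The groups were 3 types of sorted lung fibroblast, named A, B and C, and the mixed pulmonary single cells, named Pu. The cells came from the lungs of adult female C57BL/6 mice of 12 to 16 weeks, each sample held 50000 cells, and 10 ng of its RNA was amplified. The labels name no treatment and no genetic change in any group, and they describe both samples of a group as independently prepared. The antibodies of the sort were against E-cadherin (epithelium), CD31, CD146 and Lyve-1 (vessels), CD45 (leukocytes) and TER119 (red cells), besides Thy-1, Sca-1 and Pdgfra. Which of these define each fibroblast type, and how many mice stand behind a sample, are not given in the sources used here.

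As background, VEGF-A signals mainly through KDR, the chief VEGF receptor of blood endothelial cells, while FLT1 binds VEGF-A, VEGF-B and placental growth factor and acts largely as a trap for them. VEGF-C and VEGF-D are the ligands of FLT4, the receptor of lymphatic endothelium. TEK, also called TIE2, is the endothelial receptor of the angiopoietins: ANGPT1 is its steady activator, and ANGPT2 acts as an antagonist or a weak activator depending on context. In the lung these receptors are known as genes of the capillary, larger vessel and lymphatic endothelium. Several of their ligands, though not all, come mainly from neighbouring epithelial and mesenchymal cells.

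Sequences are shown for the genes on which the results turn. The first set holds the single Tek probe and the Kdr probe that stands for its gene, since they carry the receptor results. In mm9, the build of the coordinates in the array files, the Tek probe lies at chr4:94540624-94540683 on the plus strand and the Kdr probe at chr5:76330395-76330454 on the minus strand. Whether a probe lies in a particular exon or untranslated region was not assigned, because no mm9 annotation was used here. They are printed in lower case throughout, 5′ to 3′.
Tek probe: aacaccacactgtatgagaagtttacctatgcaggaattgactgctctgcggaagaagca
Kdr probe: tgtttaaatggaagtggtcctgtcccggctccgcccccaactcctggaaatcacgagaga

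The second set holds the 250 bases before the transcription start of the 4 receptor genes, shown because 3 of the 4 were lower in every fibroblast type. They were taken from RefSeq, build GRCm38.p6: Kdr at chr5:75978456-75978705 on the minus strand, Flt1 at chr5:147726012-147726261 on the minus strand, Flt4 at chr11:49609429-49609678 on the plus strand and Tek at chr4:94739039-94739288 on the plus strand. Capitals mark any match, on either strand, to one of 6 motifs. For ETS factors these were AGGAAG and its variant CGGAAG, for factors of the GATA family AGATAA and its variant TGATAA, for hypoxia-inducible factors ACGTG, and for the start of transcription the TATA box, read as TATAAA. None of the marked matches overlap.
Kdr promoter: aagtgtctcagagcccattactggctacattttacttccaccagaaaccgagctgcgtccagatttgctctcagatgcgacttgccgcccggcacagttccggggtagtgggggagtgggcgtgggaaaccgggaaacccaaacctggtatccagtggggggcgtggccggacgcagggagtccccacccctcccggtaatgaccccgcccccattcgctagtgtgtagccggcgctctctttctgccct
Flt1 promoter: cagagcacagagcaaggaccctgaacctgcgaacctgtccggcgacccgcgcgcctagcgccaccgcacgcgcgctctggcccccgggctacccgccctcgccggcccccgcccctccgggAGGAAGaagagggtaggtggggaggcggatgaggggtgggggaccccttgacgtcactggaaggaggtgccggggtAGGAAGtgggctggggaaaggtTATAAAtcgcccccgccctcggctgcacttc
Flt4 promoter: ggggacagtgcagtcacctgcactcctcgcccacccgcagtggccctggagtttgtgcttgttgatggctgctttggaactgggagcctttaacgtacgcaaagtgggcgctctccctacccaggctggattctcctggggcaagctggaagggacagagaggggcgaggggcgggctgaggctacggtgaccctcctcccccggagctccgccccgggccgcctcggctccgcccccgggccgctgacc
Tek promoter: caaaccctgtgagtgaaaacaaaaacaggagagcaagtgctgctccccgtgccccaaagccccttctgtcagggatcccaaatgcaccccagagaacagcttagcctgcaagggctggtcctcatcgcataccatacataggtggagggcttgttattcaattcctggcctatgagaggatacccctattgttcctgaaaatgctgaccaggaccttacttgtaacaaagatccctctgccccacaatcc

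The Flt1 window held AGGAAG at 129 and at 53 bases before the start and TATAAA at 31 bases, and the windows of Kdr, Flt4 and Tek held none of the letters searched. Among all 32851 promoter windows of this length, 29.5% held AGGAAG, 13.6% CGGAAG, 9.99% AGATAA, 7.94% TGATAA, 16.6% ACGTG and 12.4% TATAAA. A match is a description of the letters, and its absence says nothing about binding. RefSeq windows were found for 8 of the 10 genes, all but Angpt1 and Angpt2.

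Values are given as the log2 of the scanner's processed signal relative to the 75th percentile of the same array, so that 0 is the level of that percentile and a step of 1 is a doubling. They are compared within a probe, never between genes. Differences are the first-named group minus the second, from limma, fitted over 16986 genes with all 4 groups in one model, with its standard error (SE) and a Benjamini-Hochberg adjusted p. The threshold was 0.05, and a gene with several probes is represented by its brightest one. A probe is "not well above background" where the scanner software says so. Where that holds on both arrays of a group, only a bound on the fold is given, at least the ratio to the lowest level measured above background. Where it holds on 1 of the 2, that array is named and the difference is also given with that array raised to this lowest level where it read under it. Both Pu arrays were on 1 slide and all 6 fibroblast arrays on another, so slide and group cannot be told apart in any comparison with Pu. In bulk samples, fewer cells of a type and less RNA per cell cannot be told apart.

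The array pairs differed in how closely they matched. Between 54.6% and 68.7% of spots were well above background, and no spot was saturated. Across all genes tested, replicates of A, B, C and Pu correlated at 0.986, 0.985, 0.947 and 0.915, with 5.09%, 5.38%, 20.7% and 31.1% of genes at least 2-fold apart. Genes are no independent replicates, so these correlations carry no test. P-values here rest on 1 spread per gene, taken over the 2 samples of each of the 4 groups together and drawn toward that of other genes. A wide spread between the Pu arrays therefore also enters the comparisons between fibroblast types. The labels were checked against cell type markers, several of which were sort targets and so are no finding (Pecam1 for CD31, Lyve1, Cdh1, Ptprc, Mcam and Pdgfra). All 8 fibroblast markers were higher in each fibroblast type than in Pu, and all 9 leukocyte and all 9 alveolar epithelial markers were lower. All 12 blood endothelial markers were lower too: their summed linear level was 2.58 to 3.10 in A, 2.73 to 3.63 in B and 2.88 to 2.94 in C, against 93.1 to 126.6 in Pu. The same sum over the 9 alveolar epithelial markers was larger in C, at 3.77 to 10.6. It was 1.52 to 1.58 in A, 1.25 to 1.53 in B and 252 to 257 in Pu. Of these 9 markers, 1 was called lower in B minus C, beside 1.22% of all genes lower. The part of epithelial RNA in the B minus C results was not tested. Mcam, which encodes CD146, was not called in any type, at 8.49 to 8.68 in A, B and C, against 8.78 and 8.90 in Pu. Of 9 pericyte markers, 3 were higher and 4 lower in A and in B, and 3 higher and 2 lower in C. Of 7 erythroid and platelet markers, 5 were lower in each type, and of 4 mesothelial markers 3 were lower in A and in B and 4 in C. Among all genes, 15.4%, 16.7% and 15.4% were higher and 11.9%, 13.1% and 13.8% lower in A, B and C. Of the 12 blood endothelial markers, Vwf, Plvap and Eng were well above background on all 6 fibroblast arrays, Robo4 and Sox17 were not well above it on any, and the others were on some.

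In the comparisons with Pu, one VEGF ligand was higher in every fibroblast type, one angiopoietin was higher in every type, and the VEGF receptors were lower in every type. Against a background of 27.4% of all genes called in A minus Pu, 6 of the 10 genes were called, 2 higher and 4 lower, beside 15.4% of all genes higher and 11.9% lower. In B minus Pu it was 5 of 10, 2 higher and 3 lower, against 29.8% of all genes, with 16.7% higher and 13.1% lower. In C minus Pu it was 7 of 10, 3 higher and 4 lower, against 29.3% of all genes, with 15.4% higher and 13.8% lower. For the mean of the 3 types minus Pu the count was 7 of 10, against 37.4%. The median difference over the 10 genes was 0.05 in A, 0.05 in B and -0.65 in C, beside medians over all genes of 0.13, 0.12 and 0.07. Without A2 the count in A minus Pu was 3, beside 12.6% of all genes, and without Pu2 it was 8, beside 39.8%.

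**Figure D1:**
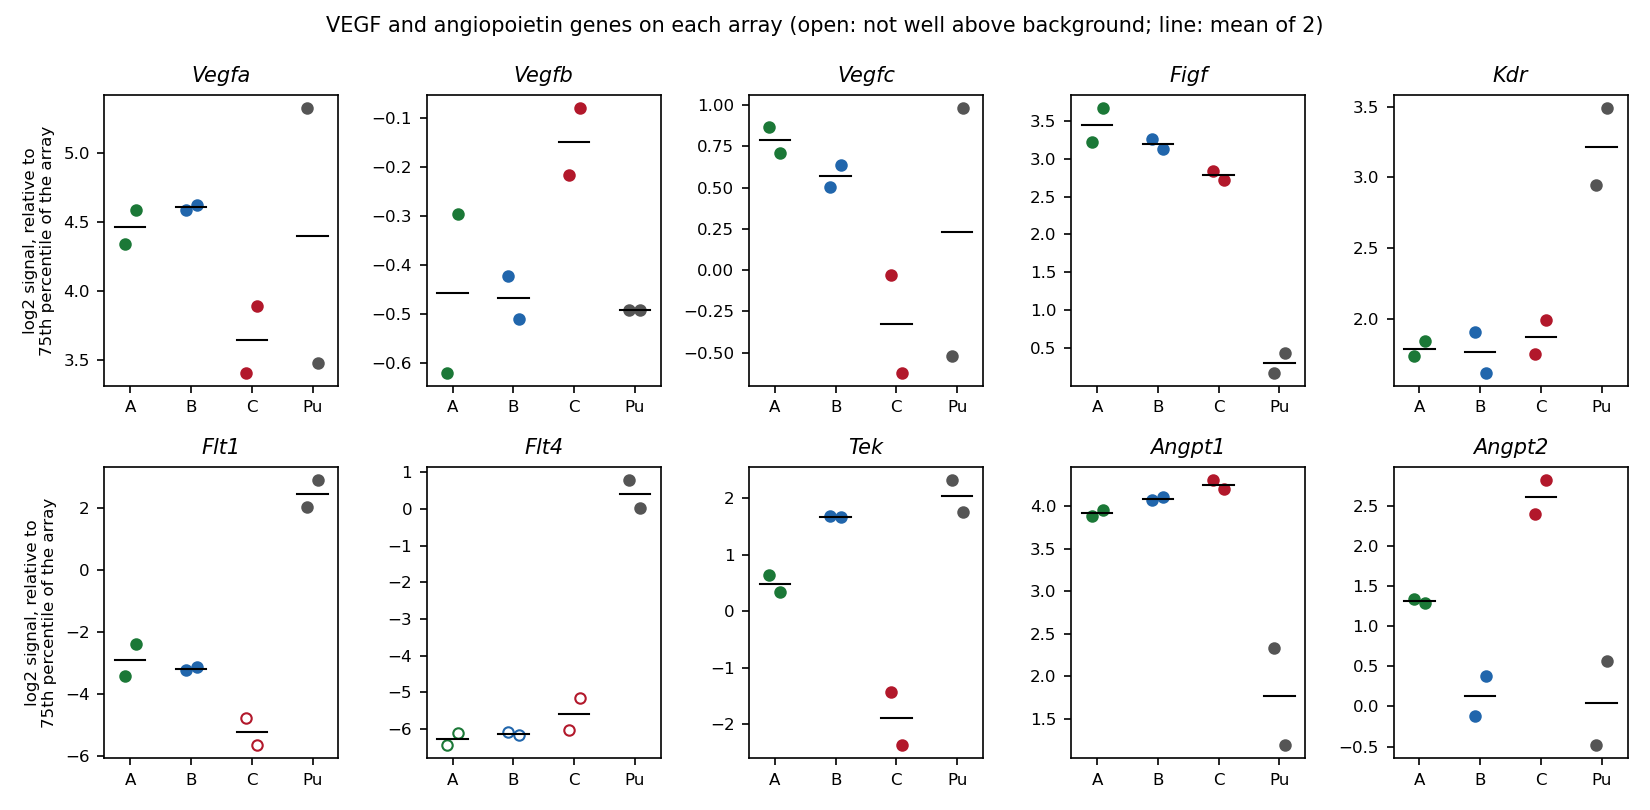
Level of each gene's brightest probe on each array (vertical axis: log2 signal relative to the array's 75th percentile, with its own scale per gene; horizontal axis: fibroblast types A, B and C, then Pu, the pulmonary single cells). Filled points were well above background, open points were not, and lines are means of 2 arrays; Figf and Angpt1 lie higher on all 6 fibroblast arrays than on both Pu arrays, and Flt1 and Flt4 lie lower.

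Figf encodes VEGF-D, a ligand of FLT4 and, in mouse, not of KDR. Its level was 3.22 and 3.67 in A, 3.26 and 3.13 in B and 2.84 and 2.72 in C, against 0.18 and 0.43 in Pu. Every fibroblast array was higher than both Pu arrays, and the C arrays were the lowest of the 6. The difference from Pu was 3.14 in A (SE 0.29; 8.81-fold; limma adjusted p = 0.000399), 2.89 in B (SE 0.29; 7.42-fold; adjusted p = 0.000543) and 2.48 in C (SE 0.29; 5.57-fold; adjusted p = 0.00114). The order of the means was A, B, C and then Pu, and no difference between fibroblast types was called: A minus C was 0.66 with a 95% interval of -0.02 to 1.34. The Figf probe was printed on the array 10 times, and the SD between its spots within an array was 0.04 to 0.07, which is spot noise alone. The SD between the 2 A arrays was 0.32.

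Vegfa encodes the main ligand of KDR and FLT1. Its brightest probe read 4.34 and 4.59 in A, 4.59 and 4.62 in B and 3.41 and 3.89 in C, against 5.32 and 3.48 in Pu. The 2 Pu arrays were the highest and the second lowest of all 8, so every type overlapped Pu. The difference was 0.06 in A (95% interval -1.28 to 1.41), 0.20 in B (-1.14 to 1.55) and -0.75 in C (-2.10 to 0.59), and none was called. Without Pu1 the difference in B was 1.13 (adjusted p = 0.0412), and without Pu2 that in C was -1.67 (adjusted p = 0.0111), with opposite signs, so the call depended on which Pu array was kept. The second Vegfa probe read 3.21 and 3.31 in A, 3.59 and 3.34 in B and 2.86 and 3.07 in C, against 3.10 and 2.63 in Pu. On it the Pu arrays lay closer together, B was highest, and no difference from Pu was called (0.40, 0.60 and 0.10 in A, B and C). Both probes gave the order B, A and C among the fibroblasts, with both C arrays below all A and B arrays. That order was not called on the brightest probe: B minus C was 0.96 (SE 0.57; limma adjusted p = 0.501). This SE includes the spread of Pu, with an SD of 1.30, against 0.02 in B and 0.34 in C.

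Vegfb, whose product binds FLT1, was nearly level. It read -0.62 and -0.30 in A, -0.42 and -0.51 in B and -0.22 and -0.08 in C, against -0.49 and -0.49 in Pu. The C arrays were the highest, and the largest difference, C minus Pu, was 0.34 with a 95% interval of -0.29 to 0.98. Vegfc, the other ligand of FLT4, read 0.87 and 0.71 in A, 0.51 and 0.64 in B and -0.03 and -0.62 in C, against -0.52 and 0.98 in Pu. The Pu arrays again lay far apart and spanned those of A, B and C1. Without Pu2 the Vegfc difference was 1.31 in A (adjusted p = 0.0263) and 1.1 in B (adjusted p = 0.0442), and without Pu1 it was -1.31 in C (adjusted p = 0.0321). With all arrays no Vegfc difference was called, and A minus C was 1.11 with a 95% interval of -0.07 to 2.30. That interval includes the spread of Pu, with an SD of 1.06, against 0.11 in A and 0.42 in C.

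The 3 VEGF receptors were lower in each fibroblast type. Flt4, the lymphatic receptor, was not well above background on any of the 6 fibroblast arrays, with readings of -6.43 to -5.17, against 0.78 and 0.03 in Pu. It was at least 22.3-fold lower in A (limma adjusted p = 0.000107), at least 20.3-fold lower in B (adjusted p = 0.000109) and at least 16.7-fold lower in C (adjusted p = 0.000169). Between fibroblast types Flt4 has no fold, since none measured it. Of 5 lymphatic endothelial markers, 3 were lower in A and in B and 2 in C, beside 11.9%, 13.1% and 13.8% of all genes lower in A, B and C. Lyve1, Mmrn1 and Reln were not well above background on any fibroblast array, but Reln in C, at -3.57 and -3.53, was not called against Pu, at -2.92 and -3.65. Prox1, the lymphatic transcription factor, was not called in any type: it read -2.78 and -3.22 in A, -3.11 and -3.04 in B and -3.86 and -3.32 in C, against -2.21 and -2.90 in Pu, and only the C arrays were not well above background. Pdpn, which fibroblasts also express, was higher in each type. Their part in the Flt4 result was not tested.

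Flt1, the trap receptor, was read by 3 probes that all gave a lower level in fibroblasts. On the brightest probe it was -3.43 and -2.38 in A, -3.23 and -3.13 in B and -4.78 and -5.63 in C, against 2.02 and 2.89 in Pu, and on the C arrays it was not well above background. The difference was -5.36 in A (SE 0.50; 41.1-fold lower; limma adjusted p = 0.0004) and -5.63 in B (SE 0.50; 49.6-fold lower; adjusted p = 0.000324), and C was at least 69.1-fold lower (adjusted p = 0.000154). A second probe lay nearer the start of the gene, at chr5:148465976-148466035 in mm9. It read -3.45 and -3.80 in A, -3.84 and -3.46 in B and -3.81 and -3.23 in C, against -0.59 and -0.04 in Pu, and B1 and C1 were not well above background. The differences of A, B and C from Pu were -3.31, -3.33 and -3.20 (limma over probes, adjusted p = 0.00143, 0.00139 and 0.00178). B1 and C1 read no lower than their lowest measured levels, so those of B and C stayed at -3.33 and -3.20. The third, at chr5:148446872-148446931, carries an Ensembl transcript as its accession. It was not well above background on any fibroblast array, against 2.05 and 2.02 in Pu, and was at least 68.9-fold lower in A, 63.0-fold in B and 51.7-fold in C. Among fibroblasts the brightest probe lay higher on both A and both B arrays than on the C arrays, a difference at least 1.68-fold for A and 1.39-fold for B that was not called (adjusted p = 0.115 and 0.0977).

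The 2 probes of Kdr agreed in direction and differed in size. The one that stands for the gene read 1.74 and 1.84 in A, 1.91 and 1.62 in B and 1.75 and 1.99 in C, against 2.94 and 3.49 in Pu. It was well above background on all 8 arrays, the fibroblast types overlapped one another, and all 6 arrays were below both Pu arrays. Kdr was lower in all 3, with a difference of -1.43 in A (SE 0.31; limma adjusted p = 0.0141), -1.45 in B (SE 0.31; adjusted p = 0.0127) and -1.35 in C (SE 0.31; adjusted p = 0.0173). The other probe, printed 10 times, starts 1086 bases further along the transcript, at chr5:76329309-76329368 in mm9. It read between -5.40 and -4.30 on the fibroblast arrays, where it was not well above background, against 2.46 and 2.22 in Pu. On that probe Kdr was at least 85.1-fold lower in A, 77.8-fold in B and 63.9-fold in C (limma over 37855 probes, adjusted p = 0.000172, 0.000201 and 0.000237), in a fit that called 17.8%, 19.5% and 20.7% of all probes. The brighter probe thus gave a 2.54-fold to 2.74-fold difference where the other gave at least 63.9-fold, and the level of Kdr in fibroblasts is uncertain to that extent. The 12 blood endothelial markers, whose medians were -6.11, -6.21 and -5.98 in A, B and C minus Pu, moved with Kdr and Flt1, and their part in these results was not tested. On the brighter probe the call was lost under median scaling, at -1.09 in A (limma adjusted p = 0.0685), -1.1 in B (0.0644) and -0.95 in C (0.1). It was also lost without A1 or A2 in A, B1 or B2 in B and C1 in C. The other probe was not fitted on its own in these settings.

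**Figure D2:**
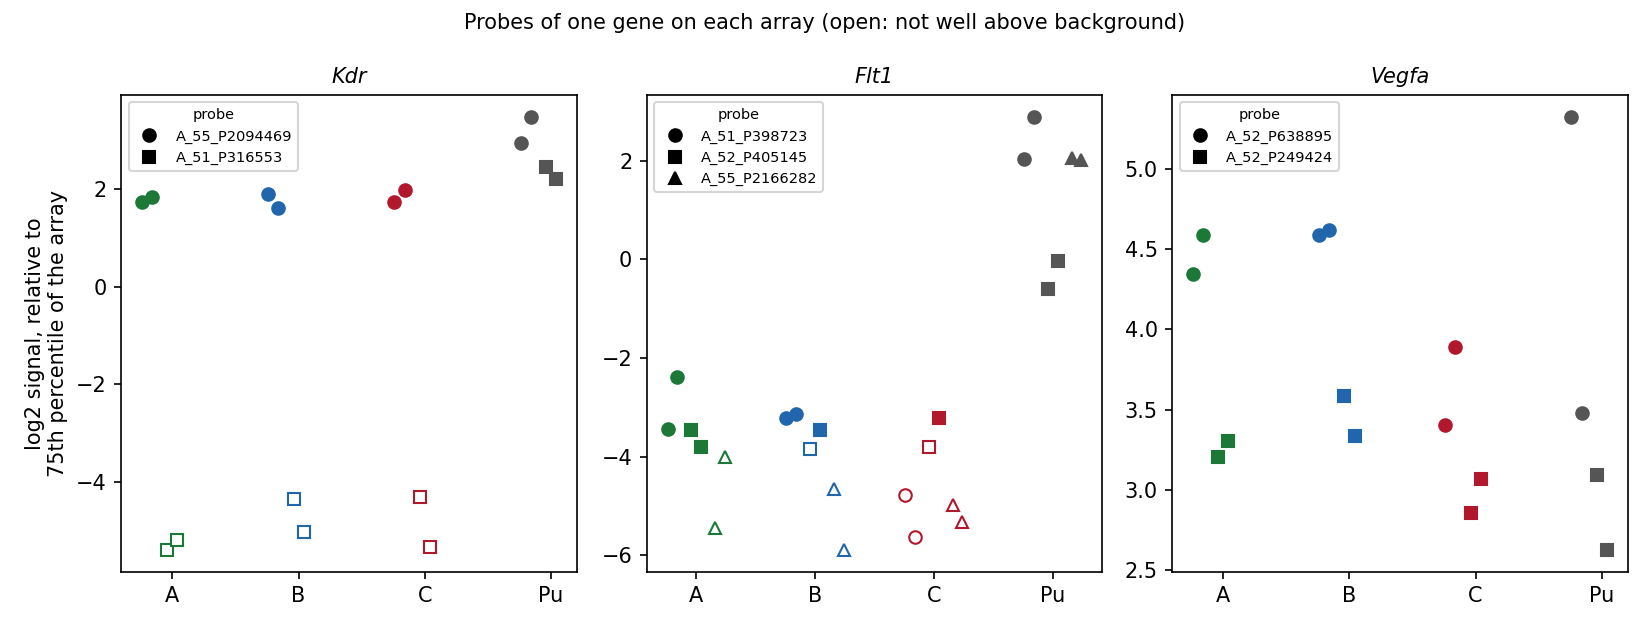
All probes of Kdr, Flt1 and Vegfa on each array (vertical axis: log2 signal relative to the array's 75th percentile; horizontal axis: fibroblast types A, B and C, then Pu, the pulmonary single cells). Marker shapes are probes, and open markers were not well above background; one Kdr probe reads 1.62 to 1.99 on the fibroblast arrays, and the other is not well above background there.

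**Figure D3:**
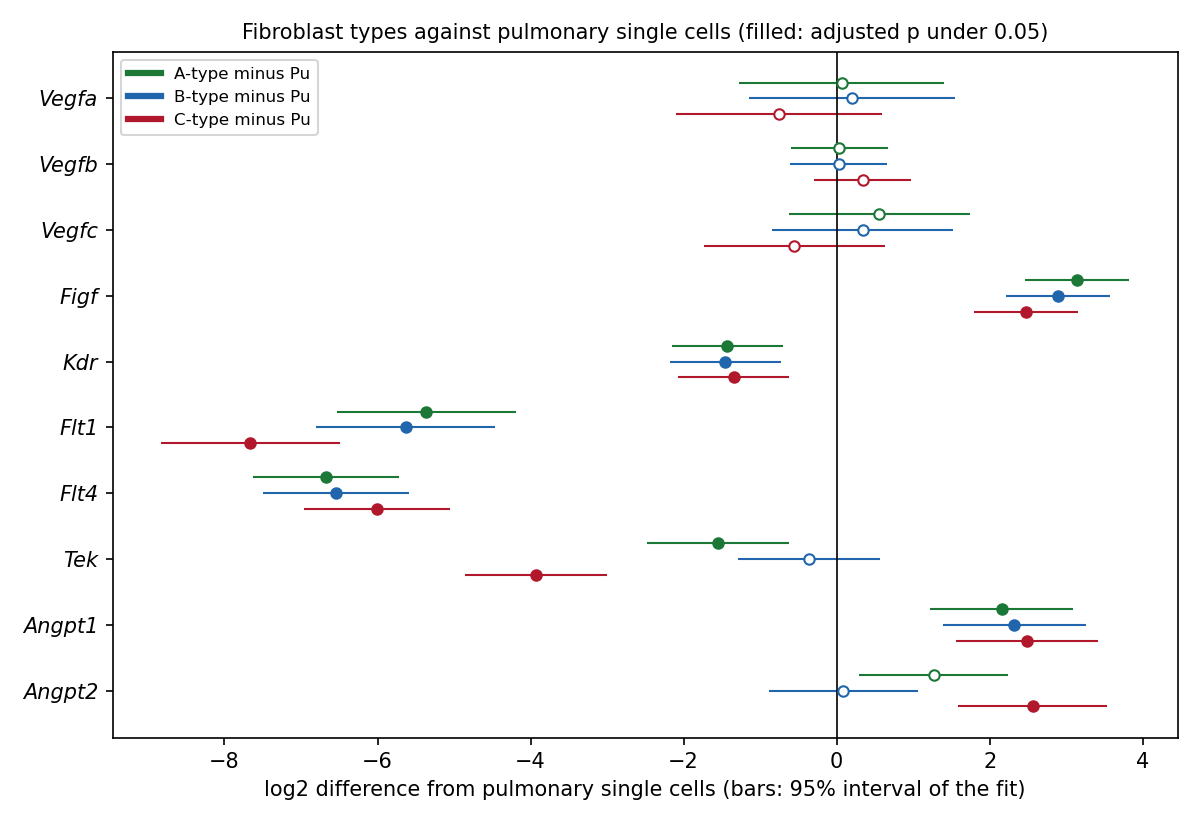
Difference of each fibroblast type from pulmonary single cells for the 10 genes (horizontal axis: log2 difference of the brightest probe; vertical axis: genes). Points are estimates of the limma fit, bars their 95% intervals, and filled points have an adjusted p under 0.05; values of Flt4, and of Flt1 in C, rest on readings not well above background, and Vegfa, Vegfb and Vegfc straddle 0 in all 3 types.

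Angpt1, the activating ligand of TIE2, was higher in every fibroblast type. It read 3.89 and 3.95 in A, 4.07 and 4.11 in B and 4.30 and 4.2 in C, against 2.33 and 1.19 in Pu. The 6 fibroblast arrays lay close together and all above both Pu arrays, which were further apart than any fibroblast pair. The difference was 2.15 in A (SE 0.39; 4.45-fold; limma adjusted p = 0.00717), 2.32 in B (SE 0.39; 5.0-fold; adjusted p = 0.00509) and 2.49 in C (SE 0.39; 5.61-fold; adjusted p = 0.00405). The means ran C, B, A and then Pu, and no difference between fibroblast types was called: A minus C was -0.33 with a 95% interval of -1.26 to 0.60. Without A2 the call in A minus Pu was lost (adjusted p = 0.0571).

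Angpt2, the context-dependent ligand, did differ between fibroblast types. It read 1.34 and 1.29 in A, -0.12 and 0.38 in B and 2.40 and 2.82 in C, against -0.48 and 0.57 in Pu. Both C arrays were the highest of the 8, both A arrays came next, and the B arrays lay within the range of Pu. Angpt2 was higher in C than in Pu by 2.57 (SE 0.41; 5.92-fold; limma adjusted p = 0.0043). In A the difference was 1.27 (SE 0.41; adjusted p = 0.0595), which passed without Pu2 (1.79; adjusted p = 0.0107) and with median scaling (0.0409), normexp (0.0347), the authors' table (0.0407) or the stricter filter on dim probes (0.0444). In B the difference was 0.08 with a 95% interval of -0.89 to 1.06. The mean of the 3 types was 1.31 higher than Pu (adjusted p = 0.0216), which was lost without Pu1 (0.0911), A1 (0.0544), A2 (0.0545) or B2 (0.057).

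Tek, the receptor of both angiopoietins, was lower in C and A than in Pu, and in B its difference from Pu was not called. It read 0.63 and 0.34 in A, 1.68 and 1.66 in B and -1.42 and -2.36 in C, against 2.32 and 1.75 in Pu. By these readings the groups ran in the order Pu, B, A and C, and Pu2 (1.75) and B1 (1.68) lay close together. Tek was lower in C, at a difference of -3.93 (SE 0.39; 15.2-fold; limma adjusted p = 0.000588), and in A, at -1.55 (SE 0.39; 2.92-fold; adjusted p = 0.0261). In B the difference from Pu was -0.36 with a 95% interval of -1.29 to 0.56 (adjusted p = 0.515). The call in A was lost without A1 (adjusted p = 0.0934), A2 (0.16), Pu1 (0.0862), B1 (0.0571) or B2 (0.0571). The summed level of the 12 blood endothelial markers was 2.73 to 3.63 in B, 2.58 to 3.10 in A and 2.88 to 2.94 in C. Eng had the largest reading of the 12 on every fibroblast array, at 0.42 to 1.01, and so weighs most in this sum. The sum therefore follows Eng more than the other markers and says little about endothelial RNA between the types. None of the 12 was called in B minus C, beside 2.5% of all genes. The part of endothelial RNA in the Tek differences was not tested.

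The fibroblast types were compared on 1 slide. In A minus B none of the 10 genes was called by limma, as none of all 16986 genes was (0%), and 2 had an unadjusted p under 0.05, Tek and Angpt2, beside 3.29% of all genes. In A minus C none was called, beside 0.442% of all genes, and 3 had an unadjusted p under 0.05, beside 13.1%. Tek was the nearest to the threshold, with A higher than C by 2.38 (SE 0.39; adjusted p = 0.0663), which passed without C1 (2.85; adjusted p = 0.0293). In B minus C, 2 of the 10 were called, beside 2.5% of all genes (1.28% higher and 1.22% lower), and they moved in opposite directions. Tek was higher in B than in C by 3.56 (SE 0.39; 11.8-fold; adjusted p = 0.00721), and Angpt2 was lower in B than in C, at -2.48 (SE 0.41; 5.59-fold; adjusted p = 0.0305). The Tek call was lost without B1 (adjusted p = 0.0883) or B2 (0.08). The Angpt2 call was lost without A1 or A2 (0.0836 each), B1 (0.248), B2 (0.156) or C2 (0.128), and the sign of both differences held without every array. By their means the 2 genes stood in opposite order among fibroblasts. Tek was highest in B, then A, then C, and Angpt2 highest in C, then A, then B. The place of A in these orders rests on no called difference.

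**Figure D4:**
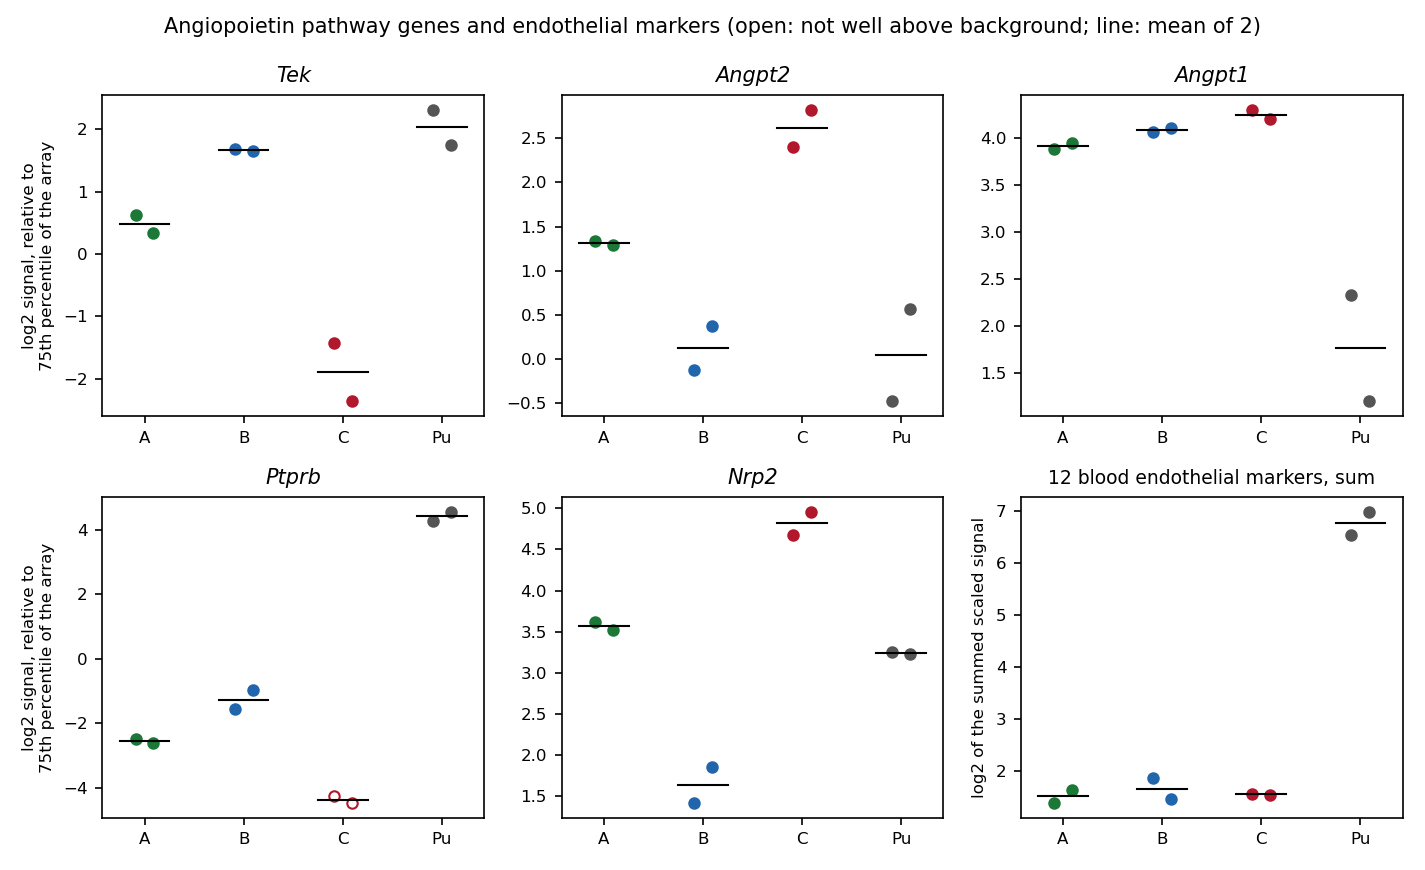
Tek, its ligands Angpt2 and Angpt1, the receptor-type phosphatase Ptprb, the co-receptor Nrp2 and the sum of 12 blood endothelial markers on each array (vertical axes: log2 signal relative to the array's 75th percentile, or the log2 of its sum, each panel with its own scale; horizontal axis: fibroblast types A, B and C, then Pu, the pulmonary single cells). Filled points were well above background, open points were not, and lines are means of 2 arrays; Tek and Ptprb fall in the order B, A, C among fibroblasts and Angpt2 and Nrp2 in the order C, A, B, while the endothelial sum lies well below Pu in all 3.

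The genes with the 8-array profile most like that of Angpt2, by the smallest root mean square difference after centring each gene on its own mean, were S1pr3 (0.21 on the log2 scale), Col27a1 (0.27) and Robo2 (0.28). The nearest to Tek were Anxa3 (0.37), Galnt18 (0.37) and Kcnk5 (0.42). The search covered 15308 genes with a plain symbol over 8 arrays in 4 groups, so these values describe likeness across the groups and carry no test.

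Of 7 other family members and partners, 2 were higher and 2 lower in A than in Pu, 3 higher and 3 lower in B, and 2 higher and 2 lower in C, beside 27.4%, 29.8% and 29.3% of all genes called in A, B and C. Svep1, an extracellular matrix protein that binds angiopoietins and TIE1, was higher in all 3 types, with A, B and C differing from Pu by 3.57, 3.17 and 2.23 (limma adjusted p = 0.000218, 0.000334 and 0.00156). Tie1, the partner receptor of TIE2, was well above background among fibroblasts on B2 alone, against 2.92 and 2.44 in Pu. It was at least 108-fold lower in A and at least 80.8-fold lower in C, and with B1 raised to its lowest measured level it was at least 79.7-fold lower in B, where B2 read -3.37. Ptprb, the endothelial phosphatase that acts on TIE2, was lower in all 3, at -6.96 in A and -5.67 in B (124-fold and 50.9-fold) and at least 268-fold in C. Unlike Tie1 it was measured on all A and B arrays, at -2.49 and -2.60 in A and -1.56 and -0.96 in B, and B was at least 5.27-fold higher than C (adjusted p = 0.00569). That call was lost without B1 (0.0568) or B2 (0.0696) and with normexp background correction (0.244).

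Angpt4, a further TIE2 ligand, read -0.60 and -0.67 in A, -0.23 and -0.73 in B and -3.67 and -1.49 in C, of which C2 alone was well above background, and it was not well above background on either Pu array. It was at least 10.9-fold higher in A (adjusted p = 0.0122) and 12.1-fold higher in B (adjusted p = 0.0101) than in Pu; the call was lost without A1 (0.0665) or A2 (0.0675) in A and without B1 (0.0654) in B. Pgf, placental growth factor and a ligand of FLT1, was higher in B than in Pu by 2.14 (adjusted p = 0.0129), a call lost without B1 (0.0667) or B2 (0.08). It differed from Pu by 1.20 in A and -0.07 in C, neither called. Nrp2, a co-receptor for VEGF-C and semaphorins, read 3.62 and 3.53 in A, 1.41 and 1.85 in B and 4.68 and 4.96 in C, against 3.25 and 3.23 in Pu. It was lower in B than in Pu, at -1.61 (limma adjusted p = 0.00636), and higher in C, at 1.58 (adjusted p = 0.00717). Between B and C the difference was -3.19 (9.10-fold lower in B; adjusted p = 0.0043), a call lost without B1 (0.0647) or B2 (0.0521). The call in B against Pu was lost without B1 (0.0705). Nrp1, the co-receptor of VEGF-A, was not called in any comparison, and A, B and C differed from Pu by 0.02, 0.22 and 0.70.

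Of 7 genes that process VEGF-C and VEGF-D, 2 were higher and 1 lower in A, and 4 were higher and 1 lower in B and in C, with medians of 1.24, 1.62 and 1.64 in A, B and C. All genes had medians of 0.13, 0.12 and 0.07, and 27.4%, 29.8% and 29.3% of them were called. Adamts2, a procollagen protease, was higher in all 3, with A, B and C differing from Pu by 4.57, 4.45 and 3.63 (limma adjusted p = 0.000181, 0.000181 and 0.000443). Ccbe1, a secreted cofactor that VEGF-C cleavage needs, was higher by 2.70, 1.62 and 2.31 (adjusted p = 0.00498, 0.0345 and 0.00948), and the call in B was lost without A1, A2, B1 or B2 (0.0678 to 0.146). Adamts3, the protease that cleaves VEGF-C, was at least 9.91-fold higher in C than in Pu, where it was not well above background (adjusted p = 0.0127), a call lost without C2 (0.0625). Between types none of the 7 was called, beside 0%, 0.442% and 2.5% of all genes in A minus B, A minus C and B minus C. In A minus B and in A minus C, 1 of the 7 had an unadjusted limma p under 0.05, beside 3.29% and 13.1% of all genes. The same held for 1 in B minus C, where the share over all genes is not given here.

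Of 9 genes of hypoxia sensing, the pathway best known for inducing Vegfa, 2 were higher and 1 lower in A, 1 higher and 1 lower in B, and 1 higher and 2 lower in C. These shares lay near those of all genes, of which 27.4%, 29.8% and 29.3% were called. Epas1 was the one lower in all 3 types, with differences of -2.37, -2.69 and -2.84 for A, B and C (limma adjusted p = 0.00145, 0.00081 and 0.0007). It encodes an oxygen-regulated transcription factor that is abundant in endothelium, and the part of endothelial RNA in this difference was not tested. Of 11 genes that hypoxia induces, A had 5 higher, B 3 and C 4, and none was lower, beside 15.4%, 16.7% and 15.4% of all genes higher. Adm, which encodes the vasodilator peptide adrenomedullin, was higher by 3.81, 3.38 and 2.46 in A, B and C (adjusted p = 0.000196, 0.0003 and 0.00119), and Ndrg1, a stress-response gene, by 2.60, 2.96 and 2.13 (adjusted p = 0.00487, 0.00275 and 0.011), a call lost in C without C2 (0.0538). The medians over the 11 were 1.04, 0.69 and 0.58, beside 0.13, 0.12 and 0.07 over all genes.

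Of 10 genes of endothelial signalling below these receptors, 1 was higher and 4 lower in A, and 2 were higher and 4 lower in B and in C. Of all genes, 15.4%, 16.7% and 15.4% were higher and 11.9%, 13.1% and 13.8% lower in A, B and C. The medians over the 10 were -0.97, -1.31 and -1.16, beside 0.13, 0.12 and 0.07 over all genes. Apln, the ligand of the apelin receptor, was lower at -4.40 in A and -3.55 in B and at least 28.7-fold lower in C, and Dll4, a Notch ligand that VEGF induces, was lower at -2.83 in A and -2.77 in B as read. A2 and B1 were not well above background for Dll4, and with them raised to their lowest measured levels the differences were -2.61 and -2.75. Shb, an adaptor of KDR and other receptors, was called higher than in Pu in all 3 types, by 2.58 in A and 2.43 in C. On the B arrays Shb read 1.86 and 1.55, against -1.26 and -0.09 in Pu. In A minus C Apln was the one gene of the 10 called, beside 0.442% of all genes, and was at least 1.36-fold higher in A (limma adjusted p = 0.0425). The Apln call in A minus C was lost without A1, A2, B1, B2 or C2. It was also lost with normexp (0.813), median scaling (0.0592) or no filter on dim probes (0.092), among others. In B minus C, 3 of the 10 were called, beside 2.5% of all genes (1.28% higher and 1.22% lower). Esm1, a secreted proteoglycan, was higher in B by 3.50 (11.3-fold; limma adjusted p = 0.0211). Apln was at least 2.45-fold higher in B (adjusted p = 0.00548), and Sh2d2a, an adaptor of KDR, was lower in B, at -3.13 (8.77-fold; adjusted p = 0.026). The Esm1 call was lost without A1 or A2 (0.0508 each), B1 (0.138) or B2 (0.178), the Apln call without B1 (0.0655) or B2 (0.0698) or with normexp (0.545), and the Sh2d2a call without A1 or A2 (0.071 each), B1 (0.196), B2 (0.172) or C2 (0.117). Of 6 angiopoietin-like genes, 1 was higher in A and in B, and 2 were higher and 1 lower in C. In C, Angptl7 was higher than in Pu, where Pu2 was not well above background: the difference was 4.44 as read (adjusted p = 0.026) and at least 3.31 with Pu2 raised to its lowest measured level. The call was lost without C1 (0.0809) or C2 (0.0872). Angptl1 was lower in C, at -2.00 (adjusted p = 0.0119). Angptl2, a secreted protein that does not bind TIE2, was higher by 1.95, 2.26 and 1.75 in A, B and C (adjusted p = 0.00849, 0.00444 and 0.0131), and its call in A was lost without A1 (0.052) or A2 (0.0686).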

How the data were processed

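Each array measured amplified, Cy3-labelled cDNA of 1 sample. Per the file headers, the deposited scanner files hold a processed signal intensity per spot, background-subtracted by the scanner software (Agilent Feature Extraction 10.10.1.1, per the submitters' processing notes). The authors' deposited value table holds log2 values that matched log2 of that intensity minus 1 constant per array, and it was used as an alternative.

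From the intensities, log2(signal) minus each array's 75th percentile over non-control spots was computed, spots with outlier flags were left out and repeated spots averaged. Probes that were not well above background on both arrays of any group were left out, and a gene was represented by the brightest of its remaining probes. limma 3.58.1 in R 4.3.3 was fitted to the 4 group means over 16986 genes, with Benjamini-Hochberg adjustment at 0.05, and over 37855 probes for probe values. The fit was tested on simulated data, where its median estimates lay close to the set sizes and it made no false call. It missed many small changes and part of the largest in genes of wide spread, so a gene not called may still differ. It missed the recovery set at first for the largest changes, and that criterion was then relaxed to genes of ordinary spread. The simulation changed genes in A alone, far fewer than were called in A minus Pu in the data. It was read in A minus Pu and gave each gene the same spread in all groups. Replicates of Pu and C lay further apart than those of A and B, so it cannot show how often false calls arise with unequal spreads. Probe names were updated through RefSeq accessions and symbols.

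Members and gene lists were chosen with earlier results of these data known. Of each list the text names at most the 4 called genes with the largest differences, of the family partners all, and for each member called between types the 3 genes of nearest profile. Shb in B minus Pu is named besides these. Ccl21a and Muc16 are not analysed here. Array number limits the precision. The alternatives were other scalings, normexp background correction, the deposited table, other filters, the mean of probes, the compared groups alone, the replicate number as a block and leaving out each array.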

Additional observations from a re-analysis of the deposited data

How the results depend on the processing

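Of 27 called differences of the 10 genes, 19 were called in every setting that tested them, 8 lost the call in some, and 0 changed sign. The 27 include 7 for the mean of the types minus Pu, which is built from the differences of A, B and C. The stricter filter on dim probes left out Flt1 and Flt4, so their calls were not tested there. Among settings that kept all arrays, the Kdr calls were lost under median scaling (-1.09, -1.1 and -0.95 in A, B and C minus Pu), with the authors' table (-1.1, -1.1 and -0.95) and with the compared groups alone, and those of Tek (adjusted p = 0.0556) and Angpt2 (0.0657) in B minus C with those groups alone. The Angpt2 call in B minus C was also lost with no filter on dim probes (0.0572). That for the mean of the types minus Pu was lost with the 75th percentile of probes detected on every array (0.0521).

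All genes called in A minus B were 0, and 22 with normexp, 27 with the compared groups alone and 0 to 1 without 1 array. In A minus C they were 75, and 47 with median scaling, 175 with normexp, 2 with no filter, 0 with the groups alone and 0 to 489 without 1 array. In B minus C they were 425, and 266 with no filter, 152 with the groups alone and 2 to 922 without 1 array. Against Pu, A gave 2144 to 6755 and B 2364 to 6969 without 1 array, and C gave 2247 with the groups alone. Members called were 1 in A minus C with normexp and with the stricter filter and 0 to 1 without 1 array, 3 to 8 in A minus Pu without 1 array, 1 in B minus C with no filter, 0 with the groups alone and 0 to 2 without 1 array, and 3 in B minus Pu with the stricter filter. The stricter filter tested 8 members, since it left out Flt1 and Flt4. The 3 called in B minus Pu there were Figf, Kdr and Angpt1, so no tested call was lost. Calls without 1 array that leave a group with 1 sample assume that it varies like the others.

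Scaling moved the direction of calls against Pu. Higher calls were 56.4%, 55.9% and 52.8% in A, B and C, against 68.8%, 70.1% and 69.6% with median scaling, 68.9%, 70.2% and 69.6% with the authors' table, and 42.0%, 39.4% and 36.6% with the 75th percentile of probes detected on every array. The median of all genes in A minus Pu moved by 0.33 with median scaling and by -0.29 with that percentile.

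None of the differences that changed sign had been called, and their cause was not tested. With the 75th percentile of probes detected on every array, against Pu, they were Angpt2 in B (-0.23), Nrp1 in A (-0.27) and B (-0.10), Vegfa in A (-0.22) and B (-0.11), Vegfb in A (-0.25) and B (-0.29), and for the mean of the types Nrp2 (-0.21), Vegfb (-0.17) and Vegfc (-0.19). With quantile normalization they were Nrp1 (-0.048), Nrp2 (-0.034) and Vegfa (-0.30) in A minus Pu, Vegfa in B minus Pu (-0.22), Nrp2 for the mean (-0.24) and Tie1 in A minus C (0.072). With normexp they were Angpt2 in B minus Pu (-0.020), Flt1 in A minus C (-0.020) and B minus C (-0.028), Flt4 in A minus B (0.10), Kdr in A minus C (0.038) and Tie1 in B minus C (-0.14). With median scaling they were Pgf in C minus Pu (0.33), Vegfa for the mean (0.20) and Vegfb in A minus B (-0.015), and with the authors' values 0.34, 0.21 and -0.020 for the same genes. With the mean of probes they were Kdr in A minus B (-0.29) and B minus C (0.0081) and Vegfa for the mean (0.10).

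Without 1 array, the ranges that crossed 0 against Pu were, in A, Nrp1 -0.58 to 0.62, Vegfa -0.86 to 0.99, Vegfb -0.13 to 0.20 and Vegfc -0.19 to 1.31. In B they were Angpt2 -0.44 to 0.61, Nrp1 -0.39 to 0.82, Vegfa -0.72 to 1.13, Vegfb -0.019 to 0.070 and Vegfc -0.41 to 1.1. In C they were Pgf -0.59 to 0.46, Vegfa -1.67 to 0.17 and Vegfc -1.31 to 0.20, and for the mean Nrp1 -0.29 to 0.92, Vegfa -1.08 to 0.76 and Vegfc -0.64 to 0.87. Between types they were, in A minus B, Angpt4 -0.41 to 0.093, Flt1 -0.25 to 0.80, Flt4 -0.30 to 0.025, Kdr -0.12 to 0.17 and Vegfb -0.15 to 0.17, Kdr -0.20 to 0.042 in A minus C, and Kdr -0.25 to 0.036 and Tie1 -0.31 to 2.50 in B minus C.

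Samples of the same number in different groups did not deviate together over all genes (correlations -0.0819 to 0.0583). With 1 difference per group, this cannot show whether samples of the same number were prepared together. With the replicate block, genes called were 4183, 4516 and 4417 in A, B and C minus Pu, 0 in A minus B, 0 in A minus C and 309 in B minus C, and the call of Angpt2 in A minus Pu was gained (adjusted p = 0.0481). The slide block was not run, since slide and the Pu group coincide. Readings not well above background leave bounds for Flt4, Tie1, 1 probe of Kdr and 1 of Flt1 in all 3 types, for the brightest Flt1 probe, Ptprb and Apln in C, and for Angpt4 and Adamts3 against Pu.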
